A study of Rattus norvegicus with 34 samples.

Results

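Cubilin (Cubn), megalin (Lrp2), amnionless (Amn), disabled-2 (Dab2) and the chloride/proton exchanger ClC-5 (Clcn5) form the endocytic apparatus of the proximal tubule of the kidney, and Anpep, Ggt1, Mme, Dpp4 and Enpep encode enzymes of its brush border. These 10 genes, 5 of each kind, were followed among the 14217 genes that the array annotation names on single-gene probe sets. They were taken by their symbols, and 13 probe sets carried them: 7 genes had 1 probe set each, and Amn, Dpp4 and Enpep had 2 each. In rat kidney after monuron, 4 of the 9 tested were higher than in control kidney (Cubn, Lrp2, Anpep and Enpep) and none was lower. Of all kidney genes tested, 3.87% were higher. The Enpep call in kidney was lost without any 1 of 4 of the 8 kidneys. In NRK-52E cells 6 of the 10 were dark on all 18 arrays, and at 72 h Dab2 and Enpep were lower in monuron cells, where 30.9% of all cell genes were lower and 61.6% differed. The Enpep reading in cells came from a probe set that was dark in kidney.

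The samples were 34 Affymetrix rat arrays of log2 expression values, 1 per sample. Of these, 18 came from NRK-52E cells, an established rat kidney epithelial line that the labels place in the proximal tubule, grown to confluence and labelled monuron or DMSO at 6, 24 and 72 h, with 3 samples a group. Both cell groups received 0.1% DMSO. The series' design text names chlorothalonil at 1.1 µM as the compound given to the cells, whereas the sample labels say monuron, a urea herbicide, so the identity of that compound is in doubt and "monuron" for cells below follows the labels. The other 16 arrays came from kidney and liver of male Wistar-derived rats, 7 to 9 weeks old and 190 to 240 g. Treated rats received monuron in corn oil at 40 mg/kg on day 1 and 400 mg/kg on days 2 and 3, and control rats corn oil alone at 5 ml/kg, with 4 samples a group in each organ. By the design text the animals were sacrificed 72 h past their final dose, while the labels give 72 h without saying from when. NRK-52E is 1 line, and each organ was measured whole.

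Background on these proteins helps to read the values. Megalin and cubilin are large receptors that take up filtered proteins, vitamin carriers and hormones from the tubule fluid. Amnionless carries cubilin to the apical membrane and anchors it there, Dab2 is the adaptor that links the tail of megalin to the clathrin coat, and ClC-5 sits on early endosomes and supports their acidification. The peptidases stand on the microvilli with their active sites outward: aminopeptidase N (Anpep), aminopeptidase A (Enpep), neprilysin (Mme) and dipeptidyl peptidase 4 (Dpp4) trim peptides, and gamma-glutamyltransferase (Ggt1) splits glutathione.

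The labelled tissues were checked against marker genes. All 17 measured proximal tubule carriers and markers lay above the array median on every kidney array, and all 7 hepatocyte markers were tested in liver. In NRK-52E cells 2 or 3 of those 17 tubule markers lay above the array median. Defining transporters were dark there, such as the phosphate carrier Slc34a1 at 2.31 ± 0.03 in monuron cells and 2.26 ± 0.02 in DMSO cells at 72 h (SD, n = 3 each). The transcription factor Hnf4a, a regulator of tubule differentiation, was dark too, at 2.36 ± 0.04 in monuron cells and 2.33 ± 0.02 in DMSO cells (SD, n = 3 each). Array medians were 3.89 to 3.94 in kidney, 3.66 to 3.78 in liver and 3.96 to 4.18 in cells. Correlations between arrays of 1 group over all probe sets were 0.987 to 0.995 in DMSO cells at 72 h, and the lowest in any other group was 0.9918, in monuron livers. The third DMSO sample at 72 h stood apart for Ggt1 and Mme, so results that rest on it are given with and without it.

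Where the genes were expressed was read first, as the percentile of each probe set among all probe sets of its own array, since the 3 sample types had different value distributions. The order of the levels was kidney, liver, cells for Lrp2, Anpep and Dpp4, with no overlap between the 3. Lrp2 stood at percentiles 99.0 to 99.7 in kidney, 61.8 to 70.8 in liver and 24.8 to 25.5 in cells. Cubn stood at 95.2 to 97.8 in kidney and at 10.6 to 22.8 in liver and 5.34 to 5.53 in cells, below the median in both. The brighter Amn probe set stood at 96.7 to 97.3 in kidney and at or below percentile 29.7 elsewhere, and liver and cells overlapped. Anpep reached 96.9 to 98.7 in kidney and 91.3 to 94.1 in liver, and Dpp4 98.2 to 99.2 in kidney and 95.5 to 96.2 in liver, so these peptidases were bright in both organs and dark in the cells. Dab2 had another order, with kidney at 99.3 to 99.6, cells at 87.2 to 98.7 and liver at 67.9 to 82.3. Ggt1 and Mme were bright in kidney (98.5 to 99.2 for Ggt1 and 91.1 to 96.8 for Mme), while the cells (47.1 to 66.7 for Ggt1 and 53.4 to 64.0 for Mme) overlapped the liver (25.7 to 57.1 and 10.6 to 57.9).

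**Figure D1:**
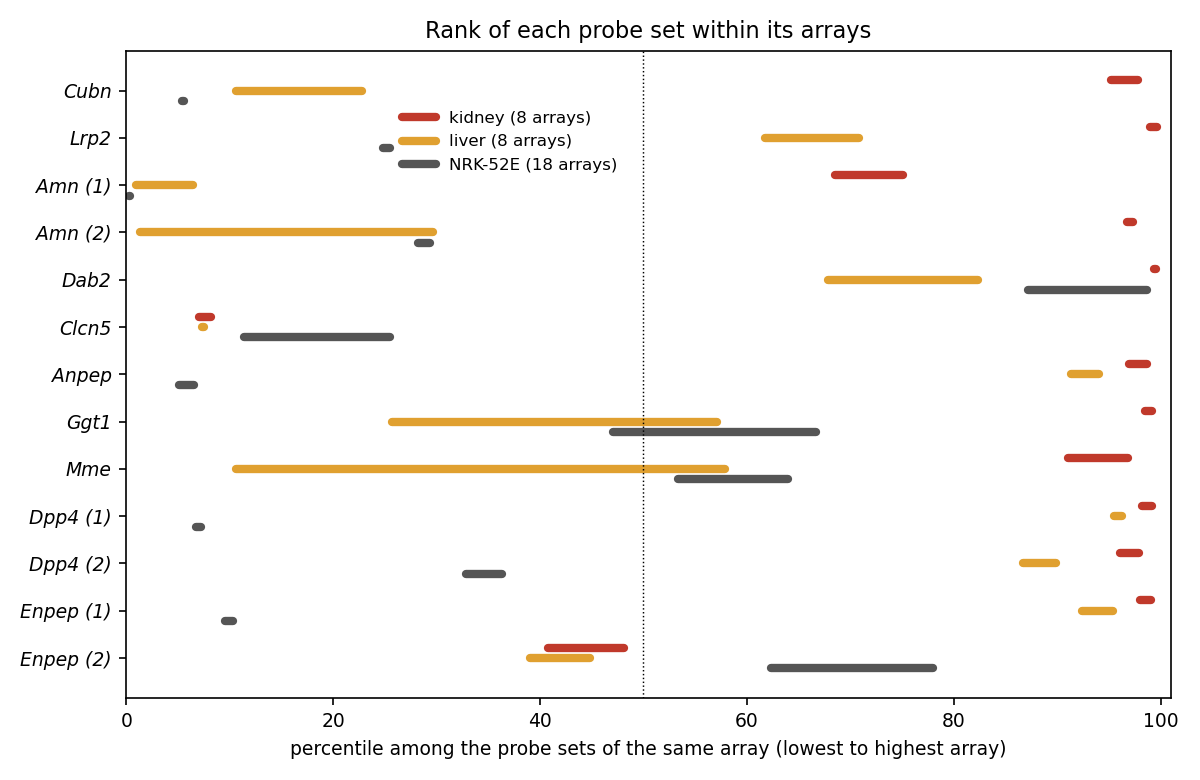
Each bar spans the lowest to the highest array of 1 sample type for 1 probe set, on a horizontal axis of percentiles within the array; the dotted line is the array median, and (1) and (2) are the 2 probe sets of a gene. Of the 13 probe sets, 10 stand above percentile 91 in kidney, Clcn5 lies to the left in all 3 sample types, and the second Enpep probe set is brightest in the cells.

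A pair of readings needs care. The single Clcn5 probe set was dark everywhere, at 2.01 to 2.08 in kidney, 2.08 to 2.13 in liver and 2.08 to 2.30 in cells, so ClC-5 RNA was not measured above background and Clcn5 was tested nowhere. The 2 Enpep probe sets disagreed. The first read 12.78 to 13.76 in kidney, 10.64 to 11.51 in liver and 2.04 to 2.11 in cells. The second read 2.91 to 3.62 in kidney, 2.95 to 3.25 in liver and 6.94 to 9.19 in cells. Kidney and liver values of Enpep below come from the first and cell values from the second, so the cell results for Enpep rest on a probe set that did not light up in the organ where Enpep is abundant.

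Control kidney was compared with control liver after the 8 arrays had been brought to a common distribution. All 9 genes tested were higher in kidney, where 40.5% of the 9910 genes tested were higher, 38.3% lower and 78.8% either. The members were chosen as genes of the proximal tubule, so this count follows from the choice and is no test. Cubn and Amn also passed the filter only through kidney. Of the 5 genes above the array median in both organs, Lrp2 had a log2 difference of 7.02 (SE 0.12) and Dab2 6.82 (SE 0.21), against 1.47 (SE 0.12) for Anpep, 1.65 (SE 0.11) for Dpp4 and 2.28 (SE 0.10) for Enpep. The other 4 were dark in some or all control livers, so only a lower bound can be given. With deposited values below an array's median set to that median, it was at least 7.87 for Cubn, 8.46 for Amn, 9.26 for Ggt1 and 6.77 for Mme.

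The question in the treated rats was whether monuron changed these genes in the kidney. Cubn was 2.01-fold higher in monuron kidneys, Anpep 1.78-fold, Lrp2 1.55-fold and Enpep 1.42-fold. The values of the 4 monuron and 4 control kidneys did not overlap for any of them. The share of all kidney genes whose groups did not overlap was not counted, so this only describes the values. Of the 9 members tested, 4 were higher and 0 lower at an adjusted p below 0.05, against 3.87% of the 9542 kidney genes tested that were higher, 6.34% that were lower and 10.2% that were either. The median log2 difference of the 9 was 0.50, while that of all genes tested was -0.08, with 35.7% of them above 0. In whole tissue, a larger share of tubule cells and more RNA per cell cannot be told apart.

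Among the endocytic proteins, the receptors moved. Cubn read 12.47, 12.62, 12.55 and 12.62 in monuron kidneys, against 11.54, 11.64, 11.38 and 11.69 in control kidneys. The lowest monuron kidney lay well above the highest control, and the log2 difference was 1.01 (SE 0.08, adjusted p = 0.000252). Lrp2, the partner receptor, read 14.24, 14.43, 14.49 and 14.61 in monuron kidneys, against 13.83, 13.95, 13.67 and 13.81 in control kidneys. Its log2 difference of 0.63 (SE 0.09, adjusted p = 0.00374) was again larger than the spread within each group, and the groups did not overlap. Amn, the anchor of cubilin, read 12.36, 12.29, 12.34 and 12.35 in monuron kidneys and 12.22, 12.13, 12.01 and 12.24 in control kidneys on the brighter probe set. The groups did not overlap, yet the difference of 0.18 (SE 0.06, adjusted p = 0.0846) did not pass. The dimmer Amn probe set read 7.53 to 8.01 in monuron kidneys and 7.23 to 7.32 in control kidneys, a difference of 0.46 (SE 0.12) with an adjusted p of 0.0498 when every single-gene probe set was tested by itself.

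The adaptor Dab2 read 14.08, 14.40, 14.31 and 14.07 in monuron kidneys and 14.37, 14.36, 14.26 and 14.40 in control kidneys. Here the groups overlapped, and the difference of -0.13 (SE 0.08, adjusted p = 0.304) did not pass.

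Among the enzymes, Anpep, the aminopeptidase that cleaves neutral residues, read 12.99, 13.06, 13.20 and 13.39 in monuron kidneys, against 12.28, 12.61, 12.12 and 12.31 in control kidneys. Every monuron kidney lay above every control, with a log2 difference of 0.83 (SE 0.12, adjusted p = 0.0041). Enpep, which cleaves acidic residues such as the first of angiotensin II, read 13.42, 13.25, 13.45 and 13.76 in monuron kidneys, against 13.05, 13.16, 12.78 and 12.87 in control kidneys. The gap between the groups was narrow, and the difference was 0.50 (SE 0.12, adjusted p = 0.0266). This call was lost without monuron replicate 1 (adjusted p = 0.0549), monuron replicate 3 (0.0728), control replicate 3 (0.0863) or control replicate 4 (0.0637), and with no filter on dim probe sets (0.0542). The calls of Cubn, Lrp2 and Anpep held when any 1 kidney was left out, with adjusted p-values of at most 0.00228 for Cubn, 0.0170 for Lrp2 and 0.0180 for Anpep.

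The other 3 enzymes did not pass. Dpp4, which removes dipeptides from incretins and other peptides, read 13.52, 13.49, 13.65 and 13.88 in monuron kidneys and 13.27, 13.50, 13.09 and 12.92 in control kidneys. The groups touched at 1 control kidney, and the difference was 0.44 (SE 0.13, adjusted p = 0.0559). Without control replicate 2 it was 0.54 (adjusted p = 0.0265), and the second Dpp4 probe set gave 0.56 (SE 0.12, adjusted p = 0.0228) when tested by itself. Mme, the neutral endopeptidase, read 11.30, 11.23, 11.74 and 12.08 in monuron kidneys and 11.17, 11.56, 10.89 and 10.33 in control kidneys. Its spread was the widest of the 9, and the difference of 0.60 (SE 0.26) had an adjusted p of 0.162; it was 0.38 without control replicate 4. Ggt1 read 13.34, 13.41, 13.49 and 13.90 in monuron kidneys and 13.17, 13.41, 13.24 and 13.15 in control kidneys, a difference of 0.29 (SE 0.12, adjusted p = 0.134), or 0.17 without monuron replicate 4. The same kidneys stood out across genes: monuron replicate 4 was the highest treated kidney for 7 of the 9 members, and control replicate 2 was the highest and control replicate 3 the lowest control kidney for 6 each.

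**Figure D2:**
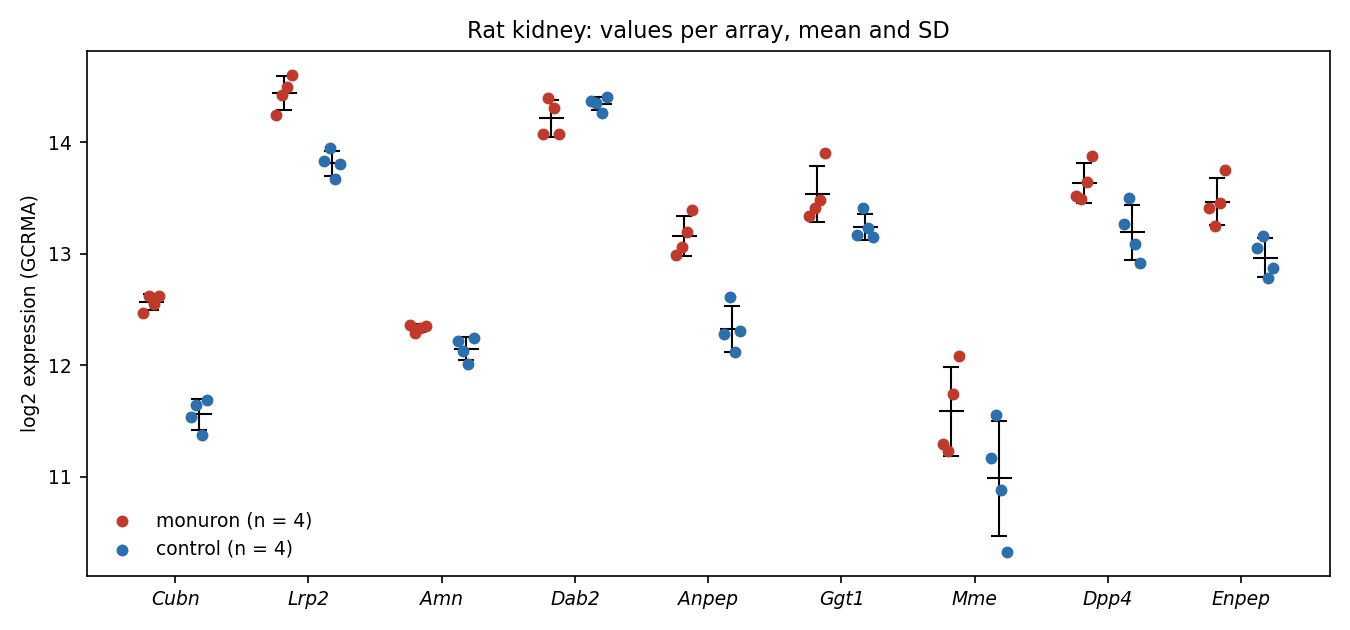
Log2 expression of the 9 genes tested in kidney, 1 point per kidney with group means, monuron kidneys left of control kidneys (n = 4 each); the vertical axes do not start at 0. Cubn, Lrp2, Amn, Anpep and Enpep show no overlap between groups, though Amn did not pass the threshold, while Dab2, Ggt1, Mme and Dpp4 overlap. The share of all kidney genes whose groups do not overlap was not counted.

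The promoters of the 4 genes that were higher in kidney are shown with that of Dab2, which was not, because HNF1 and HNF4 factors are known regulators of tubule genes. The windows are from RefSeq on GRCr8, run from 250 bases before to 50 after the annotated start, and all 10 members matched an entry. They lie at chr17:81501645-81501944 (minus strand), chr3:74754486-74754785 (minus strand), chr1:143195052-143195351 (minus strand), chr2:220526169-220526468 (minus strand) and chr2:57272050-57272349 (plus strand). Capitals mark matches to the HNF1 element (GTTAAT, any base, then ATTAAC, with up to 3 mismatches) or to an HNF4 element (CAAAGTCCA, with up to 1 mismatch), searched on both strands. The matches do not overlap one another.
Cubn promoter: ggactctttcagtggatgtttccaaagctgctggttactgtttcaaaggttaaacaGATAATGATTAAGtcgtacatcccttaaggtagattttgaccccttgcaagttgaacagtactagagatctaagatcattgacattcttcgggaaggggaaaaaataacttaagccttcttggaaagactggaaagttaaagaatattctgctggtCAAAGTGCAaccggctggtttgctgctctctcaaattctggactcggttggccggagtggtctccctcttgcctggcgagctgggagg
Lrp2 promoter: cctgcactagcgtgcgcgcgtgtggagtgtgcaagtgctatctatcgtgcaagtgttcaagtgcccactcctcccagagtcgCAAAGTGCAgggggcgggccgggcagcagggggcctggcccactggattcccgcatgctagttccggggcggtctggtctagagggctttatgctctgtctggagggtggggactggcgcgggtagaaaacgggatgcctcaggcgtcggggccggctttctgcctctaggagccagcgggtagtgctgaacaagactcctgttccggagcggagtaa
Anpep promoter: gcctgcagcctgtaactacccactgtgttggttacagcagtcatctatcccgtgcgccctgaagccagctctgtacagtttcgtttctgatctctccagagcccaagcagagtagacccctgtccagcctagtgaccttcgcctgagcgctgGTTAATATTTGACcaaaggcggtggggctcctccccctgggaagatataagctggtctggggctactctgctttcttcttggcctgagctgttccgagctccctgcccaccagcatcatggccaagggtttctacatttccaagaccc
Enpep promoter: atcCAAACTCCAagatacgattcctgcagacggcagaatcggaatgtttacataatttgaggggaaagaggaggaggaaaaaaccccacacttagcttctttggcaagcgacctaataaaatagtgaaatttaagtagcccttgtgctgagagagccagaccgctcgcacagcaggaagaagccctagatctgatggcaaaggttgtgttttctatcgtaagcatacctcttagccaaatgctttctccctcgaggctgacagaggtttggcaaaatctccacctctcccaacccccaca
Dab2 promoter: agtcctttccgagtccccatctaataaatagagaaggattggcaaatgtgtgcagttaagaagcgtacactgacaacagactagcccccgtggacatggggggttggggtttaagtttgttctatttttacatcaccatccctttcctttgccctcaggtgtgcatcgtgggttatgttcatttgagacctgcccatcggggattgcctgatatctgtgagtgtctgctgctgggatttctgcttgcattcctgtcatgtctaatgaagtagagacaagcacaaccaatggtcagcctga
The Cubn window held an HNF1-type match, GATAATGATTAAG, with 2 mismatches and an HNF4-type match, CAAAGTGCA, nearer the start. The Anpep window held GTTAATATTTGAC with 2 mismatches, Lrp2 held CAAAGTGCA and Enpep held CAAACTCCA. Over all 10 members, an HNF1 match was found in 4 (Cubn, Anpep, Amn and Dpp4) and an HNF4 match in 3 (Cubn, Lrp2 and Enpep), against 8.72% and 8.67% of the 33469 promoters searched. Amn and Dpp4, whose kidney differences did not pass, thus held a match too, and their windows are not shown. Dab2, Ggt1, Mme and Clcn5 held none. A match describes letters in a window and is no evidence of binding. Hnf4a RNA in kidney differed by 0.01 between the groups (adjusted p = 0.926), and RNA level does not measure the factor's activity. The part of HNF1 and HNF4 factors in the kidney differences was not tested.

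Related gene lists showed which neighbours moved alike. Of 11 other brush border enzymes tested in kidney, 4 were higher and 0 lower, against 3.87% and 6.34% of all genes, with a median log2 difference of 0.36. These were aminopeptidase P (Xpnpep2, 0.46, adjusted p = 0.00289), alkaline phosphatase (Alpl, 0.50, adjusted p = 0.0119), the meprin subunit Mep1a (0.38, adjusted p = 0.0246) and angiotensin converting enzyme (Ace, 1.41, adjusted p = 0.0347). Ace averaged 4.76 in monuron kidneys and 3.35 in control kidneys, and passed the filter only through the monuron kidneys. With values below the median set to it, the Ace difference was 0.84 and no longer passed (adjusted p = 0.116), which leaves 3 enzymes. The other meprin subunit, Mep1b, had a difference of 1.04 and an adjusted p of 0.0509. Of 20 microvillus scaffold genes, 3 were higher and 0 lower, where 10.2% of all genes changed, with a median of 0.12: villin (Vil1, 0.37, adjusted p = 0.0238), the microvillar cadherin Cdhr2 (0.40, adjusted p = 0.0301) and prominin-1 (Prom1, 0.91, adjusted p = 0.0351), whose groups overlapped.

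The general endocytic machinery was set beside them. Of 37 genes of clathrin coats, early endosomes, recycling and vesicle acidification tested in kidney, 1 was higher, the exchanger Clcn4 (0.33, adjusted p = 0.0461), and 0 were lower, with a median of -0.04, a share near the 3.87% of all genes that were higher. Of 12 relatives of the members, 1 was lower, the megalin relative Lrp1 (-0.52, adjusted p = 0.0472). Of 17 proximal tubule carriers and markers, 2 were higher, the cystine carrier subunit Slc3a1 (0.39, adjusted p = 0.0230) and the creatine synthesis enzyme Gatm (0.23, adjusted p = 0.0371), and the median was 0.05. The mean level of those 17 was 13.06 to 13.14 in monuron kidneys and 13.02 to 13.10 in control kidneys, so the groups overlapped on it.

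**Figure D3:**
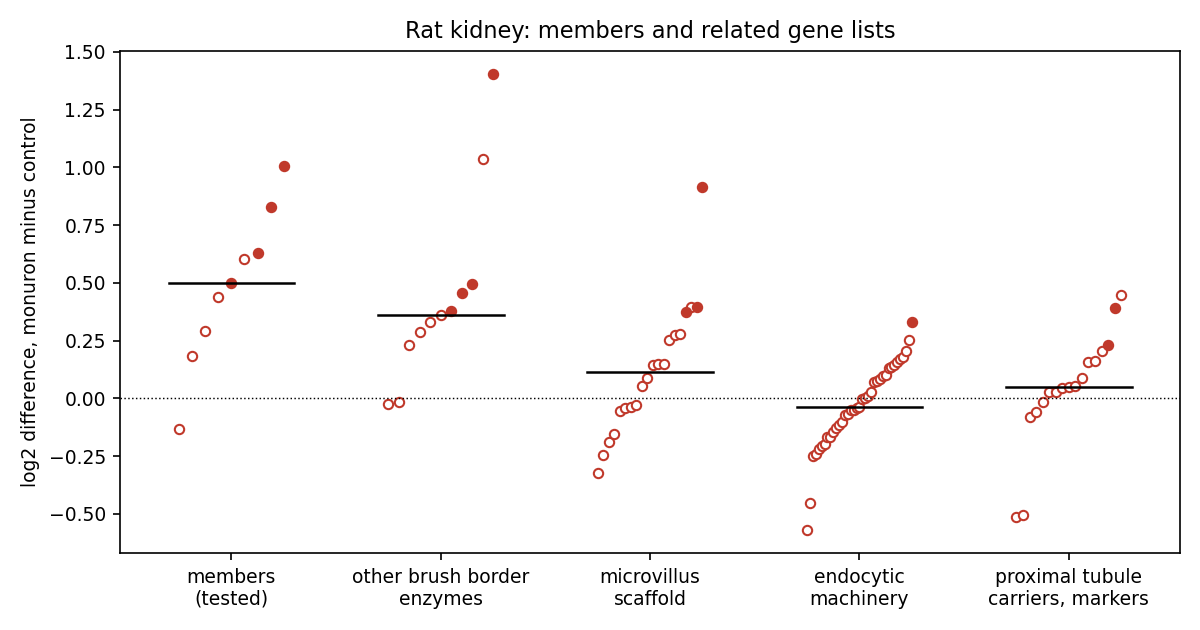
Log2 difference between monuron and control kidneys for each gene tested in 5 lists, sorted within a list; filled points have an adjusted p below 0.05 and the black lines are medians. The medians are 0.50 for the members, 0.36 for the other brush border enzymes, 0.12 for the microvillus scaffold, -0.04 for the endocytic machinery and 0.05 for the proximal tubule markers.

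Other lists moved in the same kidneys, where 3.87% of all genes tested were higher and 6.34% lower. The injury marker Havcr1 (KIM-1) averaged 2.03 ± 0.02 in monuron kidneys and 6.99 ± 0.91 in control kidneys (SD, n = 4 each), and its monuron values lay below the array median. With values below the median set to it, Havcr1 had a log2 difference of -3.07 (adjusted p = 0.00219), the smallest size these values allow. It was the only 1 of 6 injury markers that changed, and the mean level of all 7 listed was 5.97 to 6.55 in monuron kidneys and 7.01 to 7.53 in control kidneys. All 4 proliferation genes were lower, among them Ccnb1 with a log2 difference of -2.53 (adjusted p = 0.00144) and Mki67 with -2.07 (adjusted p = 0.0111). The mean level of the 4 was 5.94 to 7.19 in monuron kidneys and 8.30 to 8.68 in control kidneys. Ccnb1 averaged 4.14 ± 0.47 in monuron kidneys (SD, n = 4), near the array medians of 3.89 to 3.94. In monuron kidneys 2 to 4 of the 4 genes lay above the median, so the size of the Ccnb1 difference is uncertain. None of 4 hepatocyte genes tested passed, but their list's mean level was 4.77 to 6.67 in monuron kidneys and 3.96 to 5.43 in control kidneys, with albumin (Alb) at a difference of 2.43 (adjusted p = 0.0608). Of 4 immune genes 1 was higher, the leukocyte marker Ptprc (0.46, adjusted p = 0.0409). The 25 tested markers of thick limb, collecting duct, podocytes, endothelium and fibroblasts held no call, and neither did the 3 of bile duct. The part of these cell states in the results for the members was not tested.

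In the liver of the same study 6 members were tested, and 1 was higher, Enpep, where 1.1% of the 9361 genes tested were higher, 2.02% lower and 3.12% either. Enpep read 11.22, 11.43, 11.51 and 11.46 in monuron livers, against 10.64, 10.80, 10.82 and 10.70 in control livers. The groups were well apart, with a log2 difference of 0.66 (SE 0.08, adjusted p = 0.00868), and the call held when any 1 liver was left out. With the mean of its 2 probe sets in place of the brighter, the difference was 0.35 (adjusted p = 0.0944).

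Dab2 read 8.79, 8.24, 8.51 and 8.07 in monuron livers and 6.89, 7.31, 8.12 and 7.62 in control livers, a difference of 0.92 (SE 0.26, adjusted p = 0.0858). One control liver lay within the treated range, and without that sample, control replicate 3, the difference was 1.13 (adjusted p = 0.0346). Anpep read 10.47, 10.83, 10.40 and 10.48 in monuron livers and 10.97, 10.93, 10.69 and 11.11 in control livers, a difference of -0.38 (SE 0.12, adjusted p = 0.106). The differences of Lrp2 (0.01, SE 0.31), Dpp4 (0.14, SE 0.07) and Mme (0.06, SE 0.70) did not pass, and those of Lrp2 and Mme had wide errors. Cubn, Amn, Ggt1 and Clcn5 were too dark in liver to be tested.

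The difference between the organs was tested itself, as the monuron difference in kidney minus that in liver. Of 9 members tested, 6 had been tested in liver as well. Mme, 1 of the 6, read 2.16 to 5.01 in liver, partly below the array median. Of the 6, only Anpep was called, with a larger difference in kidney. Cubn was called too, but passed the filter only through kidney. Of all 10114 genes tested, 1.59% were higher, 1.09% lower and 2.68% either. Anpep had a difference of 1.21 (SE 0.17, adjusted p = 0.00122), since it was higher in monuron kidneys and had the other sign in liver. The Cubn value of 1.09 (SE 0.14, adjusted p = 0.000675) restates the kidney difference, since Cubn was dark in all livers, and with dark values set to the array median it was 0.97. For Enpep the difference between organs was -0.16 (SE 0.15, adjusted p = 0.656), and for Lrp2 it was 0.62 (SE 0.33, adjusted p = 0.365). Dab2 had -1.05 (SE 0.28, adjusted p = 0.0577), which passed without liver control replicate 3 (-1.26, adjusted p = 0.00666) or liver monuron replicate 4 (-1.16, adjusted p = 0.0431). Amn, Ggt1, Mme and Dpp4 did not pass. By the design text liver and kidneys came from the same 8 rats, but the labels do not tie the numbers of the organs together, so the 16 arrays were fitted as separate samples. Over all genes, 8 of 8 monuron arrays and 7 of 8 control arrays deviated most like the same-numbered array of the other organ (correlations of 0.0208 to 0.158 between same numbers), and with the number as a block Anpep still passed (adjusted p = 0.00681).

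**Figure D4:**
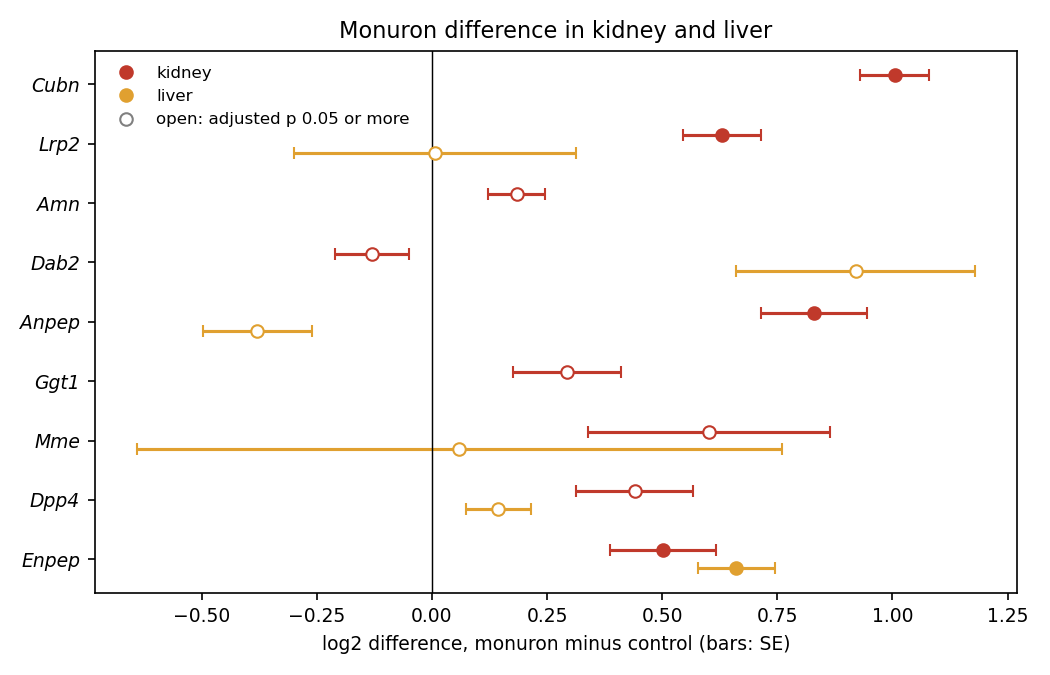
Log2 difference, monuron minus control, with its SE, in kidney (upper point) and liver (lower point) for each gene tested there (n = 4 against 4 in each organ); open points did not reach an adjusted p below 0.05. Enpep is filled in both organs, and Anpep has opposite signs in them.

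In NRK-52E cells only Dab2, Enpep, Mme and Ggt1 were bright enough to test. Cubn (1.93 to 1.99), Lrp2 (2.29 to 2.39), Anpep (1.92 to 2.00), Clcn5, and both probe sets of Amn and Dpp4 stayed below the array median on all 18 arrays, at every time and in both groups. The cell arrays therefore gave no reading of the receptors that were higher in monuron kidneys.

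At 6 h and at 24 h none of the 4 was called between monuron and DMSO cells by limma, where 6.31% of the 9042 cell genes tested differed at 6 h (3.3% higher, 3.02% lower) and 13.6% at 24 h (6.43% higher, 7.14% lower). Their unadjusted p-values were not below 0.05 either. At 72 h 2 of the 4 were lower in monuron cells and 0 higher, where 61.6% of genes differed (30.7% higher, 30.9% lower), so the share called among these genes was near that of all genes.

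Dab2 read 11.65, 11.44 and 10.74 in monuron cells at 72 h, against 13.28, 12.78 and 12.31 in DMSO cells. The groups did not overlap, and the difference was -1.51 (SE 0.21, adjusted p = 1.9e-05), or 0.350-fold. Enpep read 7.69, 7.63 and 6.94 in monuron cells, against 8.62, 8.81 and 7.95 in DMSO cells, a difference of -1.04 (SE 0.27, adjusted p = 0.00335). Again each treated sample lay below each DMSO sample, and both calls held when any 1 cell sample was left out. Ggt1 read 4.60, 4.34 and 5.02 in monuron cells and 3.41, 3.99 and 5.45 in DMSO cells, a difference of 0.37 (SE 0.34, adjusted p = 0.366). Mme read 5.75, 5.97 and 5.72 in monuron cells and 5.28, 5.16 and 6.78 in DMSO cells, a difference of 0.07 (SE 0.31, adjusted p = 0.861). DMSO replicate 3 was the highest sample for both of these. Without it Ggt1 was higher in monuron cells by 0.95 (adjusted p = 0.000722) and Mme by 0.59 (adjusted p = 0.0173). The other DMSO values of Ggt1, 3.41 and 3.99, lay below their array medians of 4.18 and 4.15, so the size of 0.95 is uncertain. With all samples kept and values below the median set to it, the Ggt1 difference was 0.06 (adjusted p = 0.859).

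Whether the cells' levels moved with time in culture was asked next. From 6 to 24 h in DMSO cells, all 4 changed, 3 higher and 1 lower at 24 h, where 53.1% of genes did (24.8% higher, 28.3% lower). Dab2 was 10.55 ± 0.21 at 6 h and 12.33 ± 0.01 at 24 h (SD, n = 3 each), a change of 1.77 (SE 0.21, adjusted p = 4.63e-06). Ggt1 was 7.62 ± 0.05 at 6 h and 5.34 ± 0.18 at 24 h, a change of -2.29 (SE 0.34, adjusted p = 4.05e-05). Enpep changed by 1.32 (SE 0.27, adjusted p = 0.00064) and Mme by 0.78 (SE 0.31, adjusted p = 0.0453). The Mme call was lost without any 1 of 14 of the cell samples, with adjusted p-values up to 0.175. In monuron cells over the same interval 2 of 4 changed, where 57.5% of genes did (27.3% higher, 30.2% lower): Dab2 by 1.42 (SE 0.21, adjusted p = 3.21e-05) and Ggt1 by -2.02 (SE 0.34, adjusted p = 0.000102). Mme, at 0.65 (adjusted p = 0.0886), passed without DMSO replicate 3 at 72 h (adjusted p = 0.00521), which enters this comparison through the shared estimate of the spread.

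From 24 to 72 h the 2 groups parted for Dab2. In monuron cells all 4 genes were lower at 72 h, where 60.7% of genes changed (28.6% higher, 32% lower). The log2 changes were -0.75 for Dab2 (adjusted p = 0.00618; -0.49 and 0.0448 without monuron replicate 3 at 72 h), -1.06 for Enpep (adjusted p = 0.00288), -1.31 for Mme (adjusted p = 0.00193) and -0.88 for Ggt1 (adjusted p = 0.0363). In DMSO cells 2 of 4 were lower, where 27.9% of genes changed (11.6% higher, 16.4% lower). The changes were -1.29 for Mme (adjusted p = 0.00616) and -1.05 for Ggt1 (adjusted p = 0.0304). Dab2 in DMSO cells had a difference of 0.46 (adjusted p = 0.116), and 0.70 (adjusted p = 0.0101) without DMSO replicate 3 at 72 h. The Ggt1 calls rested on few samples: that in DMSO cells was lost without replicate 1 or 2 at either time, with adjusted p-values of 0.0733 to 0.146, while without DMSO replicate 3 at 72 h the change was -1.64 (adjusted p = 1.47e-05). Without that sample the Mme change was -1.81 (adjusted p = 4.79e-06). The other DMSO samples at 72 h had Ggt1 below the array median. With all samples kept and values below the median set to it, the Ggt1 change in DMSO cells was -0.75 (adjusted p = 0.0457). The Ggt1 call in monuron cells was lost without any 1 of 5 of the 6 samples compared, with 0.0602 to 0.124.

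The change of the treatment difference between 24 and 72 h was called for 1 of 4 genes, where 37.9% of genes were called (18.3% higher, 19.6% lower). That gene was Dab2, at -1.22 (SE 0.30, adjusted p = 0.00519). Enpep had -0.59 (SE 0.38, adjusted p = 0.234), and Ggt1 passed only without DMSO replicate 3 at 72 h (0.76, adjusted p = 0.0324). The remaining DMSO values of Ggt1 at 72 h lay below the array median. Between 6 and 24 h the change of the treatment difference was called for 0 of 4, where 1.22% of genes were called (0.641% higher, 0.575% lower). The Enpep value of -0.88 (SE 0.38) had an adjusted p of 0.228 and an unadjusted p of 0.0344.

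**Figure D5:**
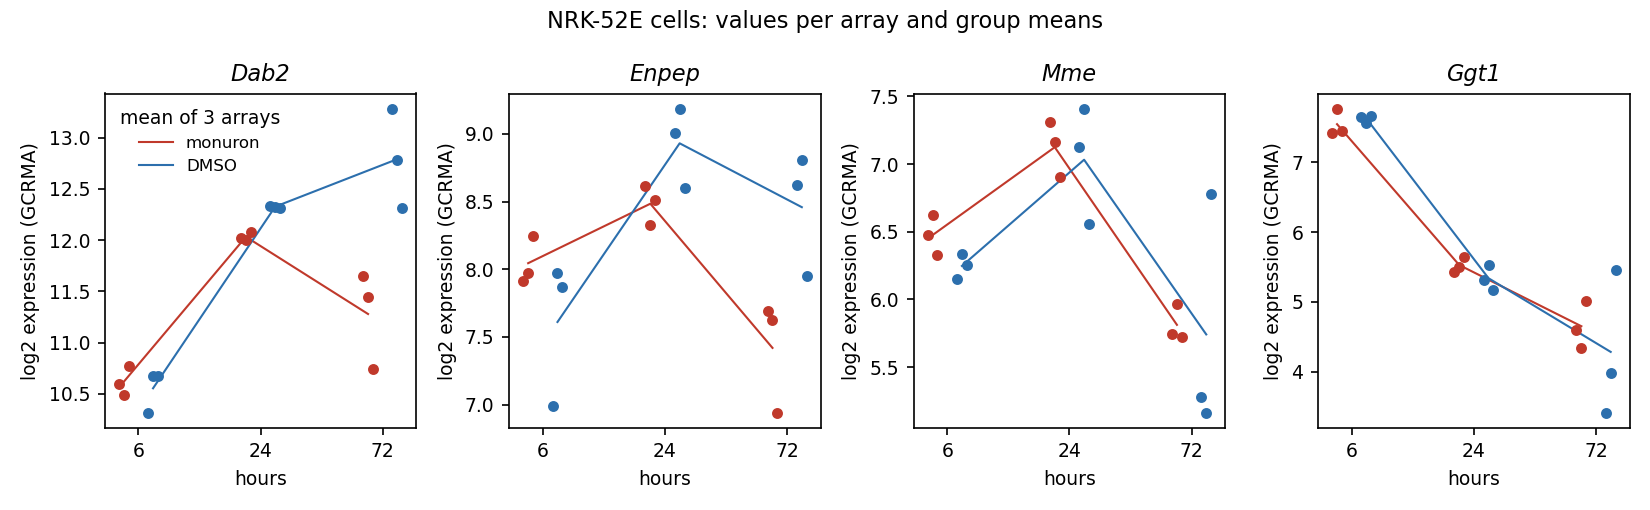
Log2 expression of the 4 genes measured in NRK-52E cells at 6, 24 and 72 h, 1 point per sample (n = 3 a group), with lines through the group means of monuron and DMSO cells; the vertical axes do not start at 0. At 72 h Dab2 and Enpep are lower in all monuron samples, and 1 DMSO sample lies apart for Mme and Ggt1.

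Around the members in cells at 72 h, where 30.7% of all genes were higher and 30.9% lower, the lists were near that background: of 35 endocytic machinery genes tested 13 were higher and 13 lower, with a median of -0.07, and of 8 scaffold genes 3 were higher and 3 lower. Proton pump subunit Atp6v0a2 was higher by 1.60 (adjusted p = 5.03e-06) and the signalling endosome adaptor Appl1 by 0.64 (adjusted p = 1.35e-05), while the recycling protein Ehd1 was lower, with a difference of -1.55 (adjusted p = 9.77e-06). Of the scaffold genes, the PDZ scaffold Nherf1 was 10.24 in monuron cells and 12.12 in DMSO cells, a difference of -1.88 (adjusted p = 2.3e-07), and ezrin (Ezr), which ties it to actin, was lower too (-0.77, adjusted p = 2.88e-06). Nherf1 was lower at 6 h as well (-0.76, adjusted p = 0.0132). None of the other brush border enzymes was bright enough to test. The mean level of the 4 proliferation genes was 10.06 to 10.69 in monuron cells and 11.17 to 11.52 in DMSO cells at 72 h, and its part in the results was not tested.

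Over the 18 cell arrays, Dab2 and Ggt1 ran against each other (Pearson r = -0.826) and Dab2 and Enpep ran together (r = 0.723). The genes most like each member were Hsd17b4 (0.978) and Megf6 (0.977) for Dab2, Thop1 (0.986) and Rfc2 (0.969) for Ggt1, Hsd17b12 (0.903) and Gcat (0.903) for Mme, and Adnp (0.911) and Syne2 (0.909) for Enpep. These correlations describe 6 groups that differ in time and treatment, which all the genes share.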

How the data were processed

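The authors deposited log2 expression values per probe set made with GCRMA, per the submitters' processing notes; its version and the grouping of arrays were not given in the sources used here. The table held 31099 probe sets, of which 57 were controls and 20826 carried 1 symbol. Each of the 14217 genes was represented by its brightest probe set on average over a fit's arrays, and tested if that probe set exceeded the array median on a number of arrays no smaller than the smallest group. limma 3.58.1 (R 4.3.3; lmFit, eBayes with trend, two-sided) was fitted separately to cells, kidney, liver, both organs with an interaction, and control organs after quantile normalization. Every adjusted p is Benjamini-Hochberg over all genes tested, with a threshold of 0.05. The fit was tried on simulated data for monuron against control kidneys and monuron against DMSO cells at 72 h. The simulated noise was independent between arrays, and the time, organ and interaction comparisons were not simulated. The outcome is not given here. Precision is limited by the number of arrays. The labels call all samples biological replicates. For the cells nothing says that they came from separate cultures, so p-values there measure only the spread between these samples.

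The members and gene lists were chosen with earlier results of these data known. All members are named, with up to 3 called genes of smallest adjusted p per list and comparison and the 2 genes most correlated with each member in cells; Hnf4a, Slc34a1, Ace, Mep1b, Alb and, in cells, Aqp1 were added after their values were seen. Samples with the same replicate number deviated together in cells at 6 h (correlations of 0.197 to 0.491) and 72 h (0.167 to 0.317), but not at 24 h (-0.116 to 0.128), in kidney (-0.216 to 0.018) or in liver (-0.164 to 0.0455). Alternatives were other scalings, no filter, the mean of probe sets, a replicate block, only the arrays compared, and each sample left out.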

Additional observations from a re-analysis of the deposited data

Results flagged for a closer look

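Anpep in monuron livers had 1 sample apart from the others, replicate 2 at 10.83 with the other 3 at 10.40 to 10.48; this was 1 of 30 member groups of 4 samples examined, and chance gives about 1 in 20. The monuron difference of Anpep was larger in kidney than in liver by 1.21 on the log2 scale, by a test of the difference itself. The Cubn value of 1.09 came from the same test, but Cubn was dark in liver, so it restates the kidney difference. In NRK-52E cells the monuron difference of Dab2 was lower at 72 h than at 24 h by a tested change of -1.22.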

How the results depend on the processing

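Among results for single members, 1478 recomputed values kept their side of the threshold, 20 passed only under an alternative and 41 no longer passed. No value called in either setting turned its direction, while 32 values of 11 results that passed in neither did, among them Ggt1 and Mme in cells at 72 h. In kidney the count of members called stayed within 1.5 times the 4 reported under every alternative. In cells at 72 h, the count of 2 was 4 without DMSO replicate 3, and also 4 without both replicate 3 samples at 72 h, an alternative chosen after seeing the data. Leaving out 1 sample gave 2 to 4. The Ggt1 call in those counts of 4 was against DMSO values below the array median. At 24 h the count of 0 was 2 with only the arrays compared and 1 (Dab2, -0.29, adjusted p = 0.0418) with a replicate block. For DMSO cells from 24 to 72 h, the count of 2 was 1 with quantile normalization, 1 with no filter and 0 with only the arrays compared (limma), and 1 to 3 when 1 sample was left out. For monuron cells from 6 to 24 h, the count of 2 was 4 with no filter and 4 with only the arrays compared. With no filter neither Mme nor Enpep gained a call, so the added calls were of members dark in the cells, at background level. With only the arrays compared, limma added Mme (adjusted p = 0.00146) and Enpep (adjusted p = 0.00578). In liver the count of 1 was 0 with the mean of probe sets and 1 to 2 when 1 sample was left out. The change of the treatment difference from 24 to 72 h was called for 1 to 2 members when 1 sample was left out. The mean of probe sets, which adds a dark probe set, took Enpep in cells at 72 h to -0.51. The cause of the other moves was not tested. The replicate block also ended the calls of Enpep in kidney (adjusted p = 0.0852), where the numbers do not pair the samples, and of Mme in DMSO cells from 6 to 24 h (adjusted p = 0.0622), and changed no other member's call, those at 72 h included. Centring the arrays moved the median of all genes in DMSO cells from 6 to 24 h to -0.15, against -0.02, and the share of higher calls to 33.9% from 46.6%; in cells at 6 h that share was 31.0% against 52.2%. Genes near background, as Cubn, Amn and Clcn5 in liver, limit what differences there can show.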

Other observations

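Of 16 relatives of the members tested in cells at 72 h, 5 were higher and 5 lower, near the 30.7% and 30.9% of all genes. The lipoprotein receptor Vldlr averaged 12.17 ± 0.25 in monuron cells and 9.79 ± 1.43 in DMSO cells (SD, n = 3 each), a log2 difference of 2.38 (SE 0.43, adjusted p = 0.000176), and the aminopeptidase Erap1 was higher by 0.43 (adjusted p = 0.0022). The phosphoinositide phosphatase Ocrl was higher in monuron cells at 6 h, by 0.92 (SE 0.12, adjusted p = 0.00128), and at 24 h, by 0.49 (adjusted p = 0.017), and lower at 72 h (-0.54, adjusted p = 0.0012). The water channel Aqp1 averaged 2.10 ± 0.02 in monuron cells and 5.98 ± 2.53 in DMSO cells at 72 h, and was not tested because too few samples lay above the array median. Of 10 proximal tubule markers tested in liver, 3 were higher and 2 lower, where 1.1% of all genes were higher and 2.02% lower. Among them Slc17a3 was lower (-0.71, adjusted p = 0.00868) and Slc22a8 higher (0.62, adjusted p = 0.0228). In liver Aqp1 averaged 5.80 ± 0.77 in monuron livers and 3.69 ± 0.27 in control livers (SD, n = 4 each), a difference of 2.10 (SE 0.35, adjusted p = 0.0228). The control mean lay at the level of the control array medians (3.67 to 3.70), so the size of this difference is uncertain.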
